A study of Homo sapiens with 8 samples.

Results

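The latrophilins LPHN1, LPHN2 and LPHN3 and the fibronectin leucine-rich transmembrane proteins FLRT1, FLRT2 and FLRT3 were measured in MIV-Luc cells, where 6 of the 29141 tested features of the array carried one of these symbols, 1 feature for each gene. All 6 were kept, and no filter on the signal was applied. MIV-Luc cells are MCF10CA1a cells, a metastatic basal-B breast carcinoma line of the MCF10A progression series, that stably express luciferase. They carried a lentiviral scrambled hairpin (shSCR) or 1 hairpin against the decoy receptor IL13Rα2 (shIL13Rα2#2), and puromycin-resistant cells were pooled rather than cloned. Both constructs were profiled after mock treatment (− IL-13) and after 16 h of 20 ng/ml IL-13 (+ IL-13), which gives 4 groups of 2 arrays and 8 arrays in all. The study's methods call the samples of a group biological replicates without naming separate transductions, so the p-values measure the spread between these samples only. The set was selected on the difference of LPHN3 between the constructs in mock-treated cells, and its family and ligands were taken with it. That difference is therefore given as a description, without a test, while the means compared after IL-13 come from 4 other arrays of the same pooled cells. The spread that the test uses was estimated over all 8 arrays.

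Latrophilins are adhesion G protein-coupled receptors, which carry a long extracellular part and a membrane-spanning part that signals through G proteins. FLRT proteins on neighboring cells bind the extracellular part of latrophilins, and teneurins are a further family of ligands for it. FLRTs also bind UNC5 receptors and fibroblast growth factor receptors. The pairs are best known from synapse formation and axon guidance, and LPHN3 with FLRT3 is the most studied of them. IL-13 is a cytokine that signals through IL13Rα1 and IL4Rα to STAT6, whereas IL13Rα2 binds it with high affinity as a decoy. The genes are now named ADGRL1, ADGRL2 and ADGRL3, and lie on chromosomes 19, 1 and 4. FLRT1, FLRT2 and FLRT3 lie on chromosomes 11, 14 and 20.

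Values are log2 RMA expression, the scale on which the authors deposited them, so that a difference of 1 is a 2-fold change. The arrays of a group are called A and B in column order and cannot be paired between groups. Differences were tested with limma over all 8 arrays, with p-values adjusted by Benjamini-Hochberg over the 29141 features. Genes with an adjusted p under 0.05 and a fold change above 2 were called. The array medians lay between 5.02 and 5.06, Pearson's r between the arrays of one group was 0.992 to 0.993, and the median SD within a group was 0.143. The hairpin's target IL13RA2 had group means of 8.08 and 9.35 in shSCR cells without and with IL-13 and of 6.43 and 8.19 in shIL13Rα2#2 cells. It was thus lower with the hairpin at either treatment (log2 fold changes of -1.65 without and -1.16 with IL-13), but rose with IL-13 in both constructs. The shIL13Rα2#2 (+ IL-13) arrays, at 8.23 and 8.15, lay above the shSCR (− IL-13) arrays, at 8.07 and 8.09. All 13 features of 10 basal epithelial keratins and related markers lay above the median of all features in every group, and 2 to 3 of 6 leukocyte markers did. The group means of the pan-leukocyte marker PTPRC were 2.39 to 2.62, those of CD14 5.22 to 5.65 and those of CD68 6.72 to 7.26. Neuronal markers, of interest because these receptors are best known from neurons, ranged from 3.26 to 6.27 in their group means, with 2 of 9 features above that median.

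LPHN3 was the one member that moved by more than 2-fold between any of the groups compared. It was highest in knockdown cells without IL-13 and lowest in control cells with IL-13, and it was lower with IL-13 in both constructs. In MIV-Luc-shSCR (− IL-13) cells its log2 expression was 6.61 and 6.60 on arrays A and B. In MIV-Luc-shSCR (+ IL-13) cells the arrays gave 6.05 and 5.74. In MIV-Luc-shIL13Rα2#2 (− IL-13) cells they gave 7.81 and 7.92, and in MIV-Luc-shIL13Rα2#2 (+ IL-13) cells 7.16 and 7.30. The arrays of neighboring groups did not overlap anywhere along this order, which includes the mock-treated groups whose difference drew attention to the gene. FLRT1 and FLRT3, each in the order of its own group means, did not overlap either. The share of all features for which this holds was not counted. For the single steps in the order of LPHN3, 36.7%, 40.3% and 37.4% of all features did not overlap. Nothing about the members is read from these separations. The gaps between successive group means of LPHN3 were 0.71, 0.62 and 0.64. Each was larger than the SD within either group, of which the largest was 0.22 (n = 2).

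**Figure D1:**
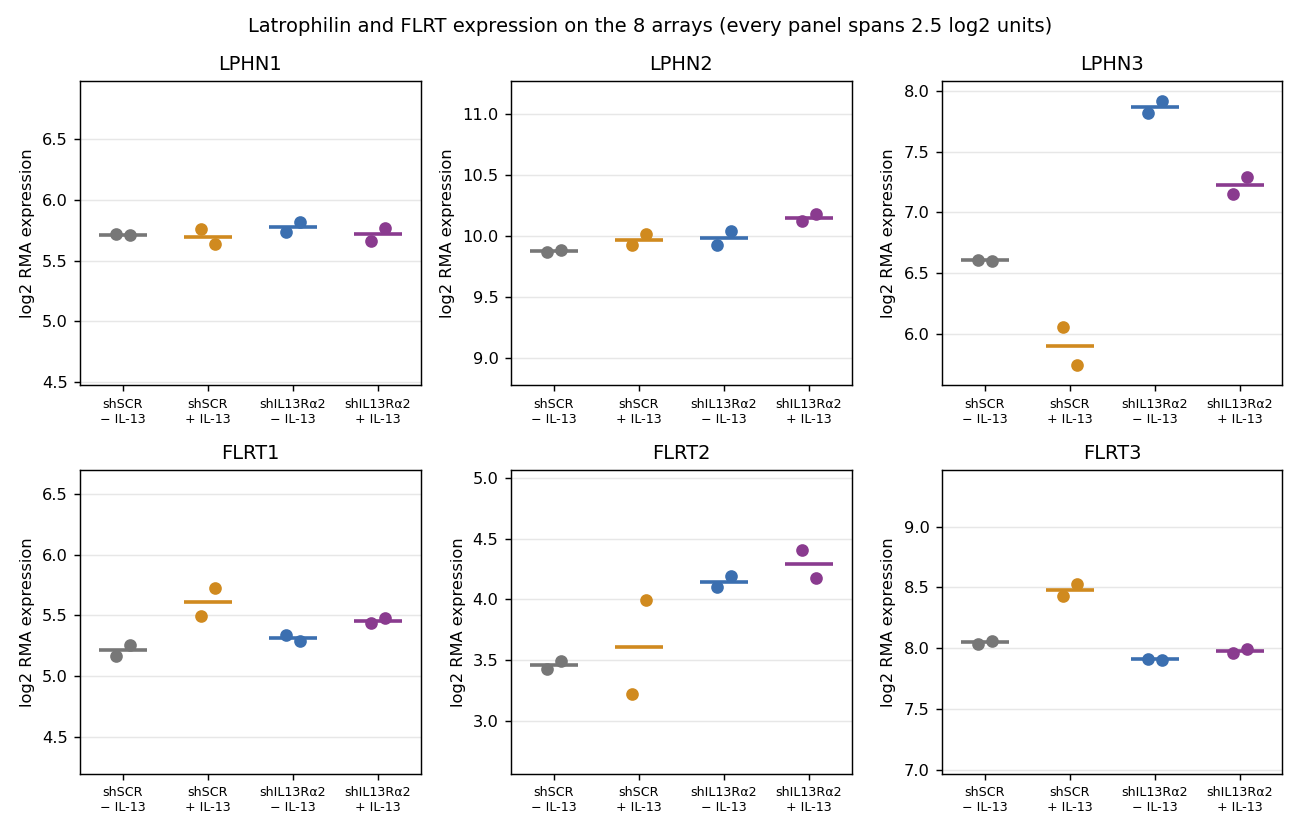
Each panel plots the log2 RMA expression (y axis) of 1 gene in the 4 groups (x axis), with a point for each of the 2 arrays of a group and a line at their mean; every panel spans the same range of 2.5 log2 units. The 4 groups of LPHN3 stand apart from each other, between 5.74 and 7.92, while LPHN1 stays between 5.63 and 5.82.

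Both constructs were compared after IL-13 to ask whether LPHN3 also differed on arrays that had not drawn attention to it. In IL-13-treated cells LPHN3 was higher with the hairpin against IL13Rα2 by 1.33 on the log2 scale (standard error 0.13, 95% confidence interval 1.02 to 1.63), a 2.51-fold difference. The adjusted p was 0.0271 in limma, so that LPHN3 rose past the threshold. It was 1 of 6 members called, against 0.0515% of all features called in this comparison and 0.0309% called higher. The call did not hold without any 1 of the 8 arrays, where the adjusted p was 0.0826 to 0.266 and the log2 fold change 1.17 to 1.48. Under the other alternatives the adjusted p was 0.000519 to 0.801, and it exceeded 0.05 with the methods' test after adjustment and with limma on the 4 IL-13 arrays alone (adjusted p = 0.296). In both of these settings 0% of all features were called, so the lost call is not particular to LPHN3. The SDs of LPHN3 that enter the shared spread were 0.01 and 0.07 in the mock-treated groups and 0.22 and 0.10 in the IL-13-treated ones.

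In mock-treated cells, the comparison that drew attention to the gene, LPHN3 was higher with the hairpin by 1.26 on the log2 scale, or 2.40-fold. Here 0.0652% of all features were called, and nothing is read from the 1 member among them. The interaction, which is the difference between the hairpin's effect with and without IL-13, was 0.07 and is likewise given without a test, since it contains the mock-treated difference.

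**Figure D2:**
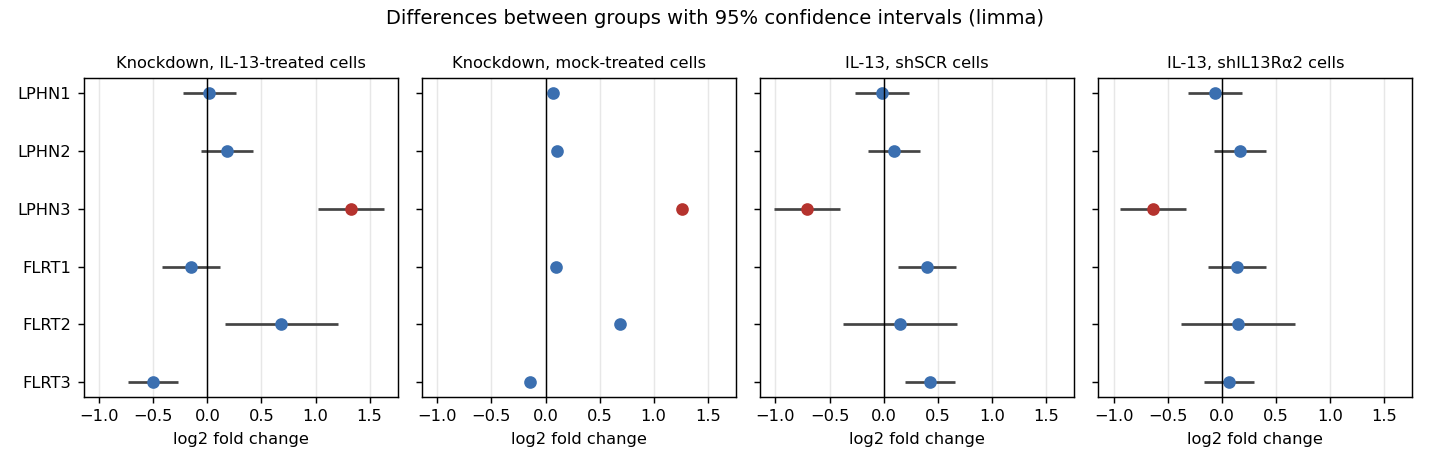
Points are log2 fold changes (x axis) of the 6 genes (y axis) in 4 comparisons, and lines are 95% confidence intervals from limma, left out in the mock-treated comparison that drew attention to LPHN3 (red). LPHN3 lies at 1.33 and 1.26 for the hairpin and at -0.71 and -0.64 for IL-13, and LPHN1 lies within 0.07 of 0 in all 4.

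LPHN3 was lower after IL-13 in both constructs. On average over them the log2 fold change was -0.67 (standard error 0.09, 95% confidence interval -0.89 to -0.46, 1.59-fold). In this balanced design the estimate does not depend on the hairpin's effect. It does include the mock-treated arrays that drew attention to LPHN3, whose SDs of 0.01 and 0.07 enter the shared spread. The adjusted p was 0.0441 in limma, and here a gene was called on the adjusted p alone. LPHN3 was the 1 member called, against 0.233% of all features called in this contrast and 0.0824% of all features called lower. Leaving out any 1 array moved the adjusted p to 0.0676 to 0.207, with log2 fold changes of -0.75 to -0.60, while the other alternatives gave 0.0028 to 0.0491. Within shSCR cells the change was -0.71 (adjusted p = 0.295) and within shIL13Rα2#2 cells -0.64 (adjusted p = 0.326), neither past the limma threshold. Each of these shares arrays with the mock-treated comparison of the constructs. With both the hairpin and IL-13, LPHN3 was 0.62 above MIV-Luc-shSCR (− IL-13) cells (adjusted p = 0.168), whose arrays also enter the mock-treated comparison, beside 0.55 for the sum of the single differences.

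Markers of other cell types were set beside LPHN3. Of 5 endothelial genes, PECAM1, an adhesion molecule of endothelial cells and leukocytes, was the only one above the median of all features. Its log2 expression was 8.20 ± 0.17 in shSCR (− IL-13) and 7.77 ± 0.08 in shSCR (+ IL-13) cells, and 8.82 ± 7.78e-06 and 8.21 ± 0.09 in the corresponding shIL13Rα2#2 cells (SD, n = 2). PECAM1 thus had its highest and lowest means in the same groups as LPHN3, although its shIL13Rα2#2 (+ IL-13) mean lay at its shSCR (− IL-13) mean. The defining endothelial genes CDH5, VWF, KDR and TEK ranged from 3.49 to 4.83 over all arrays. On the linear scale the summed level of the 5 genes was 338 to 392 in shSCR (− IL-13), 273 to 291 in shSCR (+ IL-13), 522 to 523 in shIL13Rα2#2 (− IL-13) and 350 to 373 in shIL13Rα2#2 (+ IL-13) cells. Without PECAM1 the sum was 62.7 to 72.5 over all arrays. The part of PECAM1-expressing cells in the LPHN3 result was not tested.

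The summed leukocyte markers were 223 to 238 and 214 to 232 in shIL13Rα2#2 cells without and with IL-13, beside 267 to 292 and 230 to 293 in shSCR cells. The 6 mesenchymal markers summed to 163 to 178 and the 9 neuronal features to 217 to 253 over the 8 arrays. The basal epithelial sum was 12141 to 13072 in shIL13Rα2#2 (+ IL-13) cells, below the 13186 to 14018 of the other groups. In limma 0 of the 39 marker features were called in any of the 7 comparisons, with 2 to 6 at an unadjusted p under 0.05. The methods' test at its unadjusted threshold and 2-fold gave 0. Over all features 0% to 0.233% were called in limma, and 4.47% to 9.56% passed at the unadjusted p. The latter share is not given for the comparisons of the constructs. The part of these markers in the LPHN3 result was not tested.

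The sequence upstream of the transcription starts is printed for LPHN3, the gene that moved, and for FLRT3, its best studied ligand. RefSeq (GRCh38.p14) gave 2 starts for LPHN3, with the 250 bases before them at chr4:61200076-61200325 and chr4:61201922-61202171 on the plus strand. It gave 1 start for FLRT3, with the 250 bases before it at chr20:14337613-14337862 on the minus strand. All 3 are written from 5′ to 3′, and capitals mark CG dinucleotides.
LPHN3 upstream 1: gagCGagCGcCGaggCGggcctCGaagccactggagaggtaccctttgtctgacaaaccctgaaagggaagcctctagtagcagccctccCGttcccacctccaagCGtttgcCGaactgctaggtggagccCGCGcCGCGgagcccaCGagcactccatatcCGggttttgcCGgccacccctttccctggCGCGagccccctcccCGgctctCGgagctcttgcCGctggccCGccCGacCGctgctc
LPHN3 upstream 2: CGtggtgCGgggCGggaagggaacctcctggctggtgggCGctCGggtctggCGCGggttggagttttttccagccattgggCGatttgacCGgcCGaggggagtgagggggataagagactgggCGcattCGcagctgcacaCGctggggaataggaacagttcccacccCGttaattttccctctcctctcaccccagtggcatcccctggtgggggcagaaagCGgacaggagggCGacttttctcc
FLRT3 upstream: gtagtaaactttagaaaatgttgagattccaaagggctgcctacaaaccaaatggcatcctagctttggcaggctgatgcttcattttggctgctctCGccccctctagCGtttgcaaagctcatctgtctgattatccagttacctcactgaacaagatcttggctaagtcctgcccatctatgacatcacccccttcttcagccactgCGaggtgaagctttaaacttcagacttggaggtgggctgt
The LPHN3 stretches held 23 and 16 CG dinucleotides at GC contents of 68.0% and 63.2%, and the FLRT3 stretch held 3 at 47.6%. The median over all windows of the table was 11, and 93.9% of them held at least 1. The STAT6-type sites TTCNNNGAA and TTCNNNNGAA were searched in windows of 250 bases before to 50 after each start, on both strands since each motif reads the same on either. Among the 35116 RefSeq windows, 7.66% held the former, 6.44% the latter and 13.5% either. Neither was found in the 2 windows of LPHN3, the 8 of LPHN2, the 2 of FLRT1, the 3 of FLRT2 or the 1 of FLRT3. LPHN1 had no window in the table.

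The other latrophilins moved less. LPHN2, a latrophilin with a broad tissue distribution, gave 9.87 and 9.89 in shSCR (− IL-13) and 9.92 and 10.02 in shSCR (+ IL-13) cells. In shIL13Rα2#2 cells it gave 9.92 and 10.04 without and 10.12 and 10.18 with IL-13. Its lowest group was the control without IL-13 and its highest the knockdown with IL-13, and the arrays of these groups did not overlap, as for 40.3% of all features. The difference between them was 0.28 on the log2 scale (95% confidence interval 0.03 to 0.52, adjusted p = 0.464 in limma). The groups in the middle, shSCR (+ IL-13) and shIL13Rα2#2 (− IL-13), overlapped. LPHN1, a receptor for latrotoxin, the black widow spider toxin, lay between 5.63 and 5.82 on all arrays and its neighboring groups overlapped throughout. Its differences ran from -0.06 to 0.06 over the 5 comparisons of 2 groups, and in the 4 that did not choose the set the adjusted p in limma was 0.942 to 0.997. After IL-13 the 95% confidence interval of the hairpin's effect on LPHN1 was -0.23 to 0.27.

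FLRT3 had its highest values in the group where LPHN3 had its lowest. It gave 8.04 and 8.06 in shSCR (− IL-13) and 8.43 and 8.53 in shSCR (+ IL-13) cells. In shIL13Rα2#2 cells it gave 7.91 on both arrays without IL-13 and 7.96 and 7.99 with it. The shSCR (+ IL-13) arrays stood above all others, by 0.43 from the next group mean, and the gaps between the remaining groups were 0.07. After IL-13, FLRT3 was lower with the hairpin against IL13Rα2, at -0.50 on the log2 scale (standard error 0.10, 95% confidence interval -0.73 to -0.27). This did not pass the threshold in limma (adjusted p = 0.251, or 0.0223 to 0.752 under the alternatives other than leaving out an array, and below the 2-fold limit in all of them). IL-13 gave 0.43 in shSCR cells (95% confidence interval 0.20 to 0.66, adjusted p = 0.411) and 0.07 in shIL13Rα2#2 cells (-0.16 to 0.30, adjusted p = 0.931). The interaction of -0.36 (95% confidence interval -0.69 to -0.03) did not pass either (adjusted p = 0.989 in limma). It contains the mock-treated difference, on which LPHN3 was selected and FLRT3 only came with the set. Average IL-13 differences of opposite sign stood side by side, at 0.25 for FLRT3 (adjusted p = 0.361) and -0.67 for LPHN3.

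FLRT2, a ligand of UNC5 receptors too, lay among the dimmest 30% of features. It gave 3.43 and 3.49 in shSCR (− IL-13), 3.22 and 3.996 in shSCR (+ IL-13), 4.10 and 4.19 in shIL13Rα2#2 (− IL-13) and 4.41 and 4.18 in shIL13Rα2#2 (+ IL-13) cells. All 4 knockdown arrays lay above all 4 control arrays, but narrowly, the nearest being at 4.10 and 3.996. The share of all features that separate in this way was not counted, and nothing is read from it. The arrays of shSCR (+ IL-13) lay on both sides of shSCR (− IL-13). The hairpin's log2 fold change was 0.68 after IL-13 (95% confidence interval 0.16 to 1.21, adjusted p = 0.590 in limma), beside 0.69 in mock-treated cells. The value after IL-13 rested on the spread of the shSCR (+ IL-13) arrays, at 0.30 without array A and 1.07 without array B of that group. FLRT1 gave 5.17 and 5.26 in shSCR (− IL-13) and 5.50 and 5.73 in shSCR (+ IL-13) cells. In shIL13Rα2#2 cells it gave 5.33 and 5.29 without and 5.43 and 5.48 with IL-13. The treated arrays of each construct lay above the mock-treated ones, with an average IL-13 difference of 0.27 (95% confidence interval 0.08 to 0.46, adjusted p = 0.399 in limma).

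FLRT1 and FLRT3 overlap MACROD1 and MACROD2 in the RefSeq annotation, whose levels were checked because features of overlapping genes can share signal. After IL-13 the hairpin's log2 fold change was -0.08 for MACROD1 and -0.21 for MACROD2 (adjusted p = 0.923 and 0.843 in limma), and IL-13 gave 0.10 and 0.15 in shSCR cells. LPHN3 overlaps 1 protein-coding RefSeq gene, LOC124900173, an antisense gene and a pair of ribosomal protein pseudogenes. These, and the antisense genes over LPHN1 and FLRT2, were not examined here. The deposited annotation marked none of the 6 features as cross-hybridizing.

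Over the 6 members, IL-13 in shSCR cells gave 0 calls in limma (0.0583% of all features) and IL-13 in shIL13Rα2#2 cells 0 (0.0618%). Both changes together gave 0 (0.154%) and the interaction 0 (0%). At an unadjusted p under 0.05 with no fold limit, 3, 1, 3 and 1 members passed in these 4 comparisons, against 6.79%, 6.93%, 9.56% and 4.47% of all features. The methods' test at its unadjusted threshold and 2-fold gave 0 members in the first 3, where 0.103%, 0.117% and 0.23% of all features passed. It was not run for the interaction. Nothing is read from the interaction counts, since the interaction contains the mock-treated difference on which LPHN3 was selected. The arrays of the groups compared did not overlap for 4 members under IL-13 in shSCR cells and for 4 under IL-13 in shIL13Rα2#2 cells, where 36.7% and 37.4% of all features did not. The same held for 5 members under the hairpin after IL-13 and for 5 under both changes (36.4% and 40.3% of all features). The median difference of the members was 0.10 for the hairpin after IL-13 and 0.14 for the average IL-13 effect, beside medians over all features of 0.00 and 0.01.

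The genes that bind latrophilins or FLRTs were described from a list of 18 teneurins, UNC5 and fibroblast growth factor receptors and related partners. In limma 0 of 18 were called in each of the 7 comparisons, and the methods' test at its unadjusted threshold and 2-fold also gave 0 in the comparisons of 2 groups. At an unadjusted limma p under 0.05, between 0 and 2 of them passed in each comparison. Over all features 0% to 0.233% were called in limma, so 0 of 18 says little about the list. At the unadjusted p 4.47% to 9.56% of all features passed, a share not given for the comparisons of the constructs. The median of the list was 0.06 for the hairpin after IL-13 and 0.04 for the average IL-13 effect. UNC5C, a netrin receptor of the UNC5 family, had group means of 4.65 and 4.52 in shSCR cells without and with IL-13 and 5.33 and 5.20 in shIL13Rα2#2 cells. Its difference for the hairpin after IL-13 was 0.68 (standard error 0.11, 95% confidence interval 0.43 to 0.94, adjusted p = 0.155 in limma), and 0.69 in mock-treated cells. The other UNC5 receptors differed after IL-13 by -0.04 for UNC5A, -0.09 for UNC5B and -0.21 for UNC5D. The teneurins, still named ODZ1 to ODZ4 on the array, are large transmembrane ligands of latrophilins. Their hairpin differences after IL-13 were -0.28, 0.40, 0.21 and 0.04, and their average IL-13 differences were 0.25, 0.21, 0.09 and 0.12, with adjusted p of 0.683 to 0.968 in limma. The group means of ODZ3 ran from 6.50 to 6.78 and those of ODZ2 from 3.56 to 4.05.

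**Figure D3:**
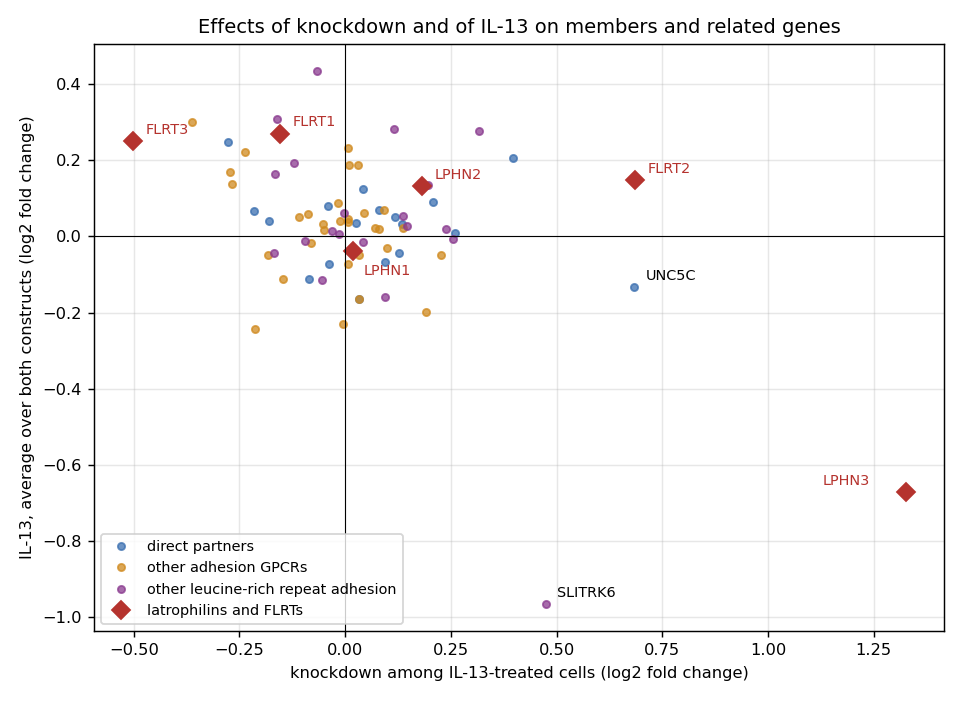
Each point is a feature of the direct partners, other adhesion G protein-coupled receptors or other leucine-rich repeat adhesion genes, and markers are not plotted. Features are placed by the log2 fold change for the hairpin after IL-13 (x axis) and by the average IL-13 log2 fold change over both constructs (y axis). Red diamonds are the latrophilins and FLRTs. LPHN3, selected on its hairpin difference in mock-treated cells, lies at 1.33 and -0.67, while most plotted features lie near 0 on both axes.

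Of the 31 features of 29 other adhesion G protein-coupled receptors, 0 were called in limma in each of the 7 comparisons. Over all features 0% to 0.233% were called. At an unadjusted p under 0.05, 0 to 3 of the 31 passed in each. Among all features 4.47% to 9.56% did, a share not given for the comparisons of the constructs. The methods' test at its unadjusted threshold and 2-fold gave 0 of these receptors. Their differences for the hairpin after IL-13 ran from -0.36 to 0.23, with a median of 0.01, and their average IL-13 differences from -0.24 to 0.30, with a median of 0.03. Of these receptors, EMR2 had its group means in the reverse order of LPHN3 (Pearson's r = -0.974 over the 8 arrays). They were 4.89 and 5.16 in shSCR cells without and with IL-13, and 4.46 and 4.79 in shIL13Rα2#2 cells. LPHN3 lay outside both ranges. It was selected on its hairpin difference in the same pooled cells, however, and the listed receptors were not.

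Among 20 other leucine-rich repeat adhesion genes, SLITRK6, a transmembrane protein known from inner ear and neuronal development, fell with IL-13. Its group means were 8.63 without and 7.73 with IL-13 in shSCR cells, and 9.24 and 8.20 in shIL13Rα2#2 cells. The average IL-13 difference was -0.97 (standard error 0.08, 95% confidence interval -1.16 to -0.78, adjusted p = 0.00406 in limma), and it stayed under the threshold without any 1 array (adjusted p = 0.0222 to 0.039). The change in shIL13Rα2#2 cells alone was -1.03 (adjusted p = 0.0371), a call lost without any 1 array (adjusted p = 0.085 to 0.41). The hairpin's difference after IL-13 was 0.47 (adjusted p = 0.384). In the other 5 comparisons 0 of 20 were called in limma, with 1 to 5 at an unadjusted p under 0.05. The methods' test at its unadjusted threshold and 2-fold gave 0 in those of 2 groups. Over all features 0% to 0.154% were called in these 5, beside 0.233% for the average IL-13 effect and 0.0618% for IL-13 in shIL13Rα2#2 cells. At the unadjusted p 4.47% to 9.56% of all features passed, a share not given for the comparisons of the constructs. The median of the list was 0.02 for the hairpin after IL-13 and 0.02 for the average IL-13 effect.

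The genes with the pattern most like that of LPHN3 were sought by Pearson's r over the 8 arrays, among 1712 features whose group means spanned at least 0.5 on the log2 scale. Of these, 55 had an r above 0.9. The 8 arrays fall into 4 groups, and r over them is a description. The highest values were 0.995 for ARHGEF38 and 0.988 for C1orf21. They were followed by 0.984 for NRG4, an ERBB4 ligand of the neuregulin family, 0.980 for RHOBTB3 and 0.980 for IGFBP3, which binds insulin-like growth factors. The group means of ARHGEF38 were 6.12 and 5.67 in shSCR cells without and with IL-13 and 6.80 and 6.41 in shIL13Rα2#2 cells. Its means spanned 1.13 on the log2 scale, those of the other 4 genes 0.80 to 0.90, and those of LPHN3 1.97.

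**Figure D4:**
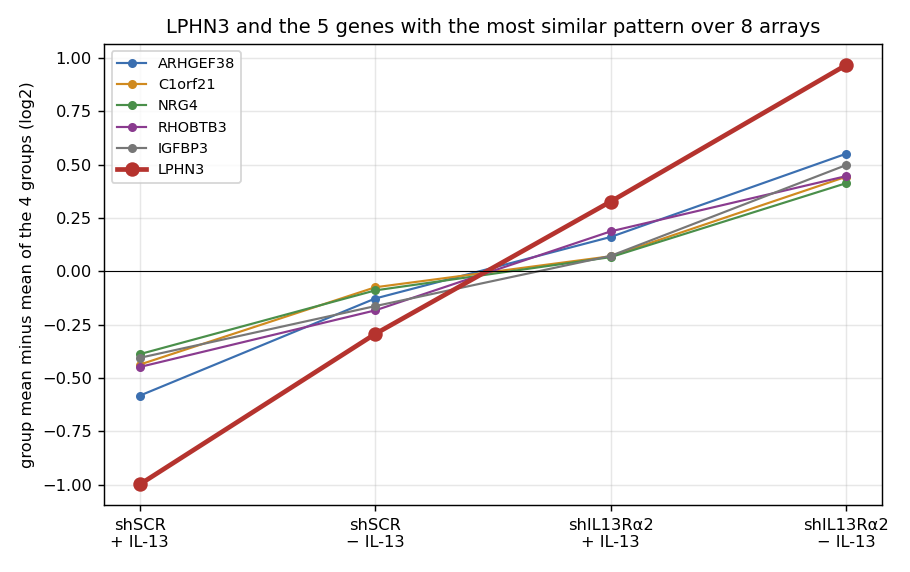
Lines join the group means of LPHN3 (thick red) and of the 5 genes with the highest Pearson's r to it, each after subtracting the mean of its 4 groups (y axis, log2 units), with the groups in the order of LPHN3 on the x axis. All 6 genes rise from shSCR (+ IL-13) to shIL13Rα2#2 (− IL-13), and LPHN3 spans 1.97 against 0.80 to 1.13 for the others.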

How the data were processed

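RNA of 8 MIV-Luc samples was hybridized to Affymetrix arrays. The authors deposited log2 values per gene-level feature, made with RMA (background correction, quantile normalization over the arrays and probe summary) in Affymetrix Expression Console version 1, and these were used as deposited. Because RMA sets all arrays to one distribution, a change shared by all genes cannot be seen. Each column's heading names its construct and treatment, which gave its group. The 4156 control features of the 33297 were left out. Group means were fitted with limma 3.58.1 in R 4.3.3 (4 residual and 3.86 prior degrees of freedom), for the 5 comparisons of 2 groups, the average IL-13 effect and the interaction. For arrays, their number limits the precision. The procedure was tested on simulated data.

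The members, the gene lists (direct partners, other adhesion G protein-coupled receptors, other leucine-rich repeat adhesion genes, and basal epithelial, mesenchymal, leukocyte, endothelial and neuronal markers) and the tests were chosen with earlier results of these data known. A further list and the result that needs it are not reported here. Named genes were the members, IL13RA2, teneurins, UNC5 receptors, list genes called in a comparison, and the 5 features with the highest r to LPHN3. PECAM1, EMR2, the MACROD genes, PTPRC, CD14 and CD68 were named after their values were seen. Alternatives were the methods' test (one-way analysis of variance on the 4 arrays compared), limma on those 4 arrays, no adjustment, no fold limit, an intensity trend with a robust prior, no dimmest 30% of features, other scalings, and leaving out each array in turn. The study's methods also ask for a false discovery rate under 0.05, which counts at the unadjusted threshold leave out.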

Additional observations from a re-analysis of the deposited data

How the results depend on the processing

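With 2 arrays per group, the calls on LPHN3 lie close to the threshold. For the hairpin after IL-13, the members called fell from 1 to 0 with the adjusted methods' test and with limma on 4 arrays, where 0% of all features were called. The LPHN3 difference after IL-13 stayed at 1.33 in both. The calls on LPHN3 for the hairpin after IL-13 and for the average IL-13 effect did not hold without any 1 array. The LPHN3 log2 fold change after IL-13 was then 1.17 to 1.48. The mock-treated comparison, which drew attention to LPHN3, is not assessed here. Without adjustment 3 members passed for the average IL-13 effect and 1 for the interaction. The share of all features called moved by more than 1.5 times too, for the hairpin after IL-13 from 0.0515% to between 0% and 0.172%, and for the average IL-13 effect from 0.233% to between 0.0789% without 1 array and 8.73% without adjustment. A group left with 1 array was assumed to vary like the others. The remaining limit is signal: FLRT2 has no value without the dimmest 30% of features.

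Of the members and of SLITRK6, no called difference changed sign. Differences near 0 did. The interaction of FLRT2 became 0.0211 after a further quantile normalization, and LPHN1 under both changes became -0.0038 after shifting the arrays to one median. Leaving out an array gave ranges across 0 for FLRT2 (-0.0453 to 0.34 for the average IL-13 effect, -0.24 to 0.54 for IL-13 in shSCR cells and -0.39 to 0.39 for the interaction) and for LPHN1 (-0.0489 to 0.0535 for both changes, -0.0793 to 0.0464 for IL-13 in shSCR cells, -0.0441 to 0.0816 for the hairpin after IL-13 and -0.11 to 0.0169 for the interaction), and for the interaction of LPHN3 (-0.0898 to 0.22). No paired analysis was possible because the columns carry no replicate numbers that could be matched between groups. The average IL-13 effect and the interaction have no methods' test or 4-array fit, since each uses all 8 arrays.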
